A study of Mus musculus with 30 samples.

Results

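Lztfl1, Lars2, Itga9 and 2010315B03Rik are 4 genes of mouse chromosome 9, the chromosome that also carries the D6 gene, named Ccbp2 on the array and Ackr2 in current annotation. They were chosen because their signal in these data differed between D6-deficient and WT skin on every day studied, so the size of that difference is given here as a description and without a test. All probe sets that the array assigns to these symbols were taken, 12 of 45037 that are not controls, in a table of 22121 gene symbols, and each was followed on its own: 5 for Lztfl1, 3 for Lars2, 3 for Itga9 and 1 for 2010315B03Rik. All 12 passed the filter on low values, which kept 36029 probe sets with a lowest mean of 3.72. Lztfl1 1435514_at passed only through its WT arrays, with a mean of 5.35 in WT and 3.05 in D6-deficient skin.

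The arrays hold whole shaved back skin of female mice aged 8-12 weeks of the 129–C57BL/6 strain, either WT or D6-deficient. TPA, a phorbol ester that inflames skin, was painted on at 50 µM in acetone in 3 applications a day apart, and skin was taken 1, 2, 4 or 6 days after the last of them. Controls of either genotype received acetone only and stand as day 0. With 3 mice per genotype and day and 1 array per mouse, the 10 groups come to 30 arrays, and values are log2 intensities. The labels call the D6-deficient mice null for the receptor and do not describe the altered allele. The labels name the same mixed strain for both genotypes and do not give the strain from which the chromosome around the D6 gene came, so the lack of D6 and any sequence inherited along with the altered gene cannot be told apart in this design.

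D6 is an atypical chemokine receptor of lymphatic vessels that takes up and degrades inflammatory CC chemokines without signalling like other receptors. Genes that lie close together on a chromosome tend to be inherited together, so mice bred to differ at 1 gene can also differ at its neighbours. The 4 genes have unrelated roles. Lztfl1 encodes a leucine zipper protein that binds the BBSome, the complex that carries membrane proteins in and out of cilia. Lars2 encodes the mitochondrial leucyl-tRNA synthetase, which loads leucine onto its tRNA for protein synthesis in mitochondria. Itga9 encodes the integrin alpha-9 chain, which pairs with the beta-1 chain (Itgb1) and binds tenascin C, osteopontin and VCAM-1; it is known from lymphatic valves and from keratinocytes of healing skin. 2010315B03Rik is a protein-coding gene known by its RIKEN clone name.

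In the order of RefSeq genes on chromosome 9 (GRCm38.p6, the C57BL/6J reference), counted from the D6 gene, Itga9 stood at position -95, Lars2 at 41, Lztfl1 at 50 and 2010315B03Rik at 65, and the chromosome ended 71 annotated genes after D6. Lztfl1, Lars2 and 2010315B03Rik each had a probe set that read lower on all D6-deficient arrays, and the 250 bases before the start of each are shown so that the sequences before these genes, chosen for that genotype step, can be compared. The sequences are from RefSeq with the same build, written 5′ to 3′ on the strand of the gene. Capitals mark 4 motifs searched on both strands: the CCAAT box (CCAAT), the GC box (GGGCGG), the E-box (CACGTG) and the AP-1 site (TGACTCA), none of which overlapped another.
Lztfl1 chr9:123717626-123717875 (minus strand): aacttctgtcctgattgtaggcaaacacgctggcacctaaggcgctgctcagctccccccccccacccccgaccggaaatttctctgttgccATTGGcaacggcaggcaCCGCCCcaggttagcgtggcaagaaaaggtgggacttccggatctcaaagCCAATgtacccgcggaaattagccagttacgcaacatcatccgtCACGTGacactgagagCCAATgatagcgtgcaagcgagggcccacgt
Lars2 chr9:123366677-123366926 (plus strand): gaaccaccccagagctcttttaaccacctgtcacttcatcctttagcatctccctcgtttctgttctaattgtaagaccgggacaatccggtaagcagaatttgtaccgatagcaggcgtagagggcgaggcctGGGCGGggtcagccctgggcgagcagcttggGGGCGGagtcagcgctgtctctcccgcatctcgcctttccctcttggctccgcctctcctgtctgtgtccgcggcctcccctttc
2010315B03Rik chr9:124312695-124312944 (minus strand): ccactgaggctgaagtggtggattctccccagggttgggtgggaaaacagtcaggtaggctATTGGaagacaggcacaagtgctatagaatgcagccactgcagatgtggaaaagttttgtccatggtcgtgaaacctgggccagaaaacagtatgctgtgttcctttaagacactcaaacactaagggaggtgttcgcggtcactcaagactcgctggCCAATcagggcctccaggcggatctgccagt
The Lztfl1 stretch held 3 CCAAT boxes, 1 GC box and 1 E-box, that of Lars2 held 2 GC boxes, and that of 2010315B03Rik held 2 CCAAT boxes. No motif occurred in all 3. Among 32851 promoters of this length, 33.8% held a CCAAT box, 32.7% a GC box, 6.02% an E-box and 4.46% the AP-1 letters, which none of the 3 held. These matches are letters in the reference of 1 strain and not measured sites. For Itga9 the RefSeq promoter table gives a start inside the gene, and its stretch, which held none of the 4 motifs, is not shown.

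The label of the genotypes was checked on the D6 gene, which has 3 probe sets. On 1422112_at all D6-deficient arrays, at 3.30 to 3.86, lay below all WT arrays, at 4.16 to 5.76. On 1422111_at the genotypes did not overlap on any day (difference over all days -0.69), whereas on 1437937_at they overlapped on every day (-0.07). Markers of keratinocytes (Krt5, Krt14, Krt1, Krt10), leukocytes, fibroblasts, skeletal muscle and adipocytes read between 6.29 and 14.7, as in whole skin, and Prox1 of the lymphatic markers read 3.42 to 4.80, near the lowest mean kept (3.72). The skeletal muscle markers Ckm, Acta1, Myh4 and Tnnt3 were lower in D6-deficient skin over all days in 4 of 4 cases, with log2 summed levels of 13.9 to 15.9 against 14.7 to 16.0 in WT skin. Of the 4 lymphatic markers 1 was called lower, Flt4 (-0.36, limma adjusted p = 0.0078), with summed levels of 10.1 to 12.5 against 10.4 to 12.9. Lyve1 (-0.80, adjusted p = 0.087), Prox1 (-0.29, 0.097) and Pdpn (-0.09, 0.74) were also below 0 but did not pass. No keratinocyte, leukocyte, fibroblast or adipocyte marker differed by genotype at an adjusted p under 0.05 with limma. The hybridization controls, RNAs added to the sample before hybridization, separated a set of 17 arrays (9 WT, 8 D6-deficient) from one of 13 (6 WT, 7 D6-deficient). Since the samples are whole skin, fewer cells of a type and less RNA per cell cannot be told apart.

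2010315B03Rik showed the largest genotype difference of the 12 probe sets. In WT skin its probe set 1438238_at read 7.29, 7.82, 7.86 (day 0), 6.70, 6.83, 7.55 (day 1), 7.56, 7.70, 7.62 (day 2), 7.61, 7.42, 7.43 (day 4), 7.68, 6.98, 7.61 (day 6). In D6-deficient skin it read 5.44, 5.10, 4.51 (day 0), 4.35, 4.92, 4.31 (day 1), 5.76, 4.66, 5.43 (day 2), 4.41, 4.63, 4.51 (day 4), 4.93, 4.16, 5.50 (day 6). Every D6-deficient array lay below every WT array, at 4.16 to 5.76 (median 4.66) against 6.70 to 7.86 (median 7.56). The difference over all days was -2.60 on the log2 scale (SE 0.14), or 6.08-fold lower in D6-deficient skin. It ran from -2.97 at day 4 to -2.34 at day 2, and within the 2 array sets it was -2.45 and -2.63. The separation was there in control skin before any TPA, at 7.66 ± 0.32 in WT against 5.02 ± 0.47 in D6-deficient skin (mean ± SD, n = 3).

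Lztfl1 had 5 probe sets, and they did not move together. On 1435514_at the WT arrays read 5.63, 5.49, 6.17 (day 0), 4.25, 5.19, 5.96 (day 1), 5.36, 5.02, 5.71 (day 2), 4.80, 4.94, 4.27 (day 4), 5.99, 5.48, 6.06 (day 6). The D6-deficient arrays read 3.41, 3.07, 3.11 (day 0), 3.10, 3.08, 3.25 (day 1), 3.04, 2.94, 3.13 (day 2), 2.79, 2.98, 2.80 (day 4), 2.83, 3.15, 3.06 (day 6). The 2 genotypes did not overlap, and the difference over all days was -2.30 (SE 0.12), or 4.94-fold, between -2.83 at day 6 and -1.81 at day 4. All D6-deficient values on this probe set lay below 3.72, the lowest mean that passed the filter on low values, and its fold rests on values near the bottom of the scale. On 1428974_s_at the D6-deficient arrays were also lower, by -0.57 (SE 0.07), ranging from 6.09 to 6.82 against 6.74 to 7.35 in WT skin, with overlap within day 4 only. On 1417170_at the order was turned, with D6-deficient arrays at 9.30 to 9.67 and WT arrays at 8.96 to 9.62, a difference of 0.26 (SE 0.05) that ran from 0.16 at day 1 to 0.35 at day 6. The remaining probe sets differed little, at 0.03 (SE 0.06) for 1460200_s_at and -0.15 (SE 0.08) for 1431323_at. Depending on the probe set, Lztfl1 thus read much lower, somewhat lower, slightly higher or nearly equal in D6-deficient skin.

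Lars2 gave both directions as well. On 1435682_at the WT arrays read 8.69, 8.37, 8.34 (day 0), 7.61, 7.78, 8.13 (day 1), 8.21, 8.25, 7.58 (day 2), 7.77, 8.21, 7.88 (day 4), 7.93, 7.75, 7.71 (day 6). The D6-deficient arrays read 7.12, 7.08, 7.17 (day 0), 6.62, 6.50, 6.74 (day 1), 6.52, 6.64, 6.54 (day 2), 6.89, 6.75, 6.69 (day 4), 7.00, 6.77, 6.71 (day 6). All D6-deficient arrays lay below all WT arrays, and the difference was -1.23 (SE 0.07), a 2.35-fold lower signal, with the smallest difference at day 6 (-0.97) and the largest at day 2 (-1.45). On 1439225_at the genotypes were apart on each of the 5 days, by -0.54 to -0.70, although the ranges over all days met (5.50 to 6.01 in D6-deficient and 5.89 to 6.73 in WT skin). On 1443672_at the D6-deficient arrays were higher, by 0.45 over all days (SE 0.07). This difference was the least even over the days, at 0.73 in control skin, 0.10 at day 1, 0.90 at day 2, 0.22 at day 4 and 0.30 at day 6, and the genotypes were apart on 3 of the 5 days. A lower signal in D6-deficient skin on every day was thus read by 2 of the 3 Lars2 probe sets.

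Itga9 was the gene that read higher in D6-deficient skin. On 1460285_at the WT arrays read 6.62, 6.65, 5.88 (day 0), 6.50, 6.43, 6.11 (day 1), 6.26, 6.72, 6.20 (day 2), 6.97, 6.93, 7.17 (day 4), 6.49, 6.42, 6.22 (day 6). The D6-deficient arrays read 7.46, 7.73, 7.50 (day 0), 7.24, 7.14, 7.30 (day 1), 7.50, 7.37, 7.56 (day 2), 8.35, 7.71, 8.22 (day 4), 7.50, 7.12, 7.42 (day 6). The genotypes were apart on each of the 5 days, by 0.88 at day 1 to 1.18 at day 0, and the difference over all days was 1.04 (SE 0.08), or 2.05-fold. Over all days together the ranges met, because a WT array reached 7.17 at day 4 while D6-deficient arrays were as low as 7.12 on other days. The other probe sets of the gene differed much less, at 0.08 (SE 0.07) for 1450029_s_at, which overlapped on every day, and 0.13 (SE 0.05) for 1420860_at, which was apart at day 2 only. So 1 of the 3 Itga9 probe sets carried the genotype difference.

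**Figure D1:**
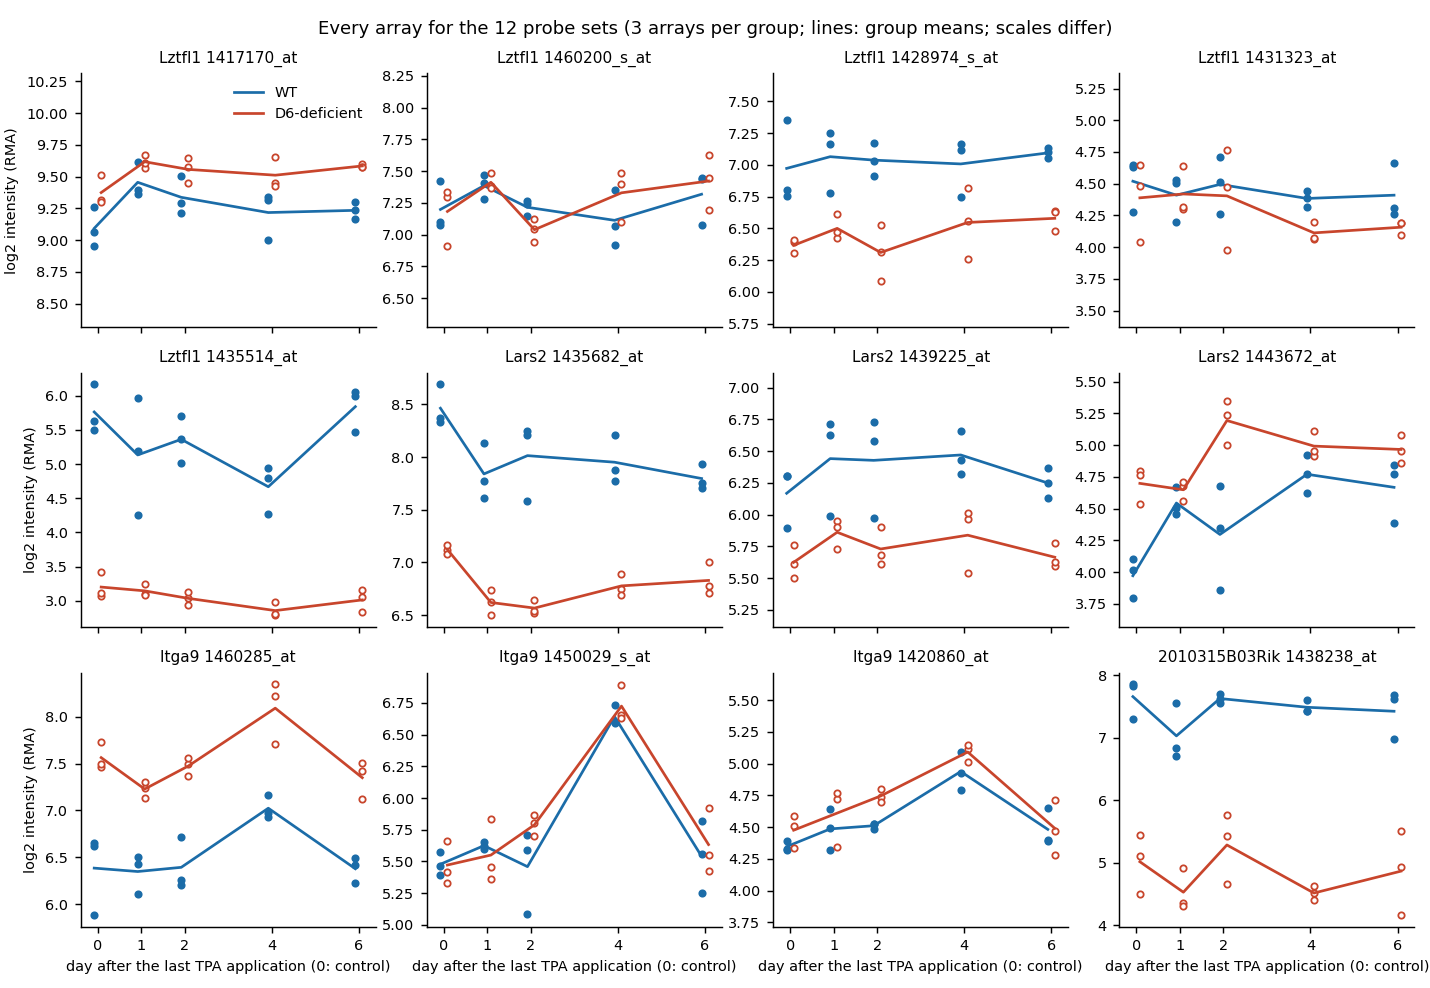
Log2 intensity (vertical axis) of every array for the 12 probe sets against the day after the last TPA application (horizontal axis), with WT arrays as filled blue points, D6-deficient arrays as open red points and lines through the group means (n = 3). The colours are fully apart for 2010315B03Rik 1438238_at, Lztfl1 1435514_at and Lars2 1435682_at, whereas other probe sets of the same genes overlap.

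In the probe sets that set the genotypes apart most, the difference had the same sign on all days. Between the lowest and the highest day it moved by 0.30 for Itga9 1460285_at, 0.48 for Lars2 1435682_at, 0.63 for 2010315B03Rik and 1.02 for Lztfl1 1435514_at. Genotype took 90.6% of the sum of squares over the 30 arrays for 2010315B03Rik, 87.7% for Lztfl1 1435514_at, 84.0% for Lars2 1435682_at and 70.1% for Itga9 1460285_at. The median over all tested probe sets was 1.77% for genotype and 46.7% for day. The lowest genotype share among the 12 was 0.68%, for Lztfl1 1460200_s_at, and for Itga9 1450029_s_at genotype took 0.77% and day 86.1%. Within the array sets the difference kept its sign for these 4 probe sets, at -2.10 and -2.50 for Lztfl1, -1.08 and -1.45 for Lars2, and 1.00 and 1.20 for Itga9, and it was -0.44 and -0.88 for Lars2 1439225_at. All 15 D6-deficient arrays lay below all 15 WT arrays for 6 of 36029 probe sets (0.0167%) and above them for 1 (0.00278%). The 6 were the D6 gene, Lztfl1, Lars2 and 2010315B03Rik on chromosome 9, Tm2d2 on chromosome 8 (-1.19) and 2700046G09Rik on chromosome 19 (-1.01), and the 1 was AU019157 (1.55). The members were chosen by this contrast, so their place in the list is no finding.

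**Figure D2:**
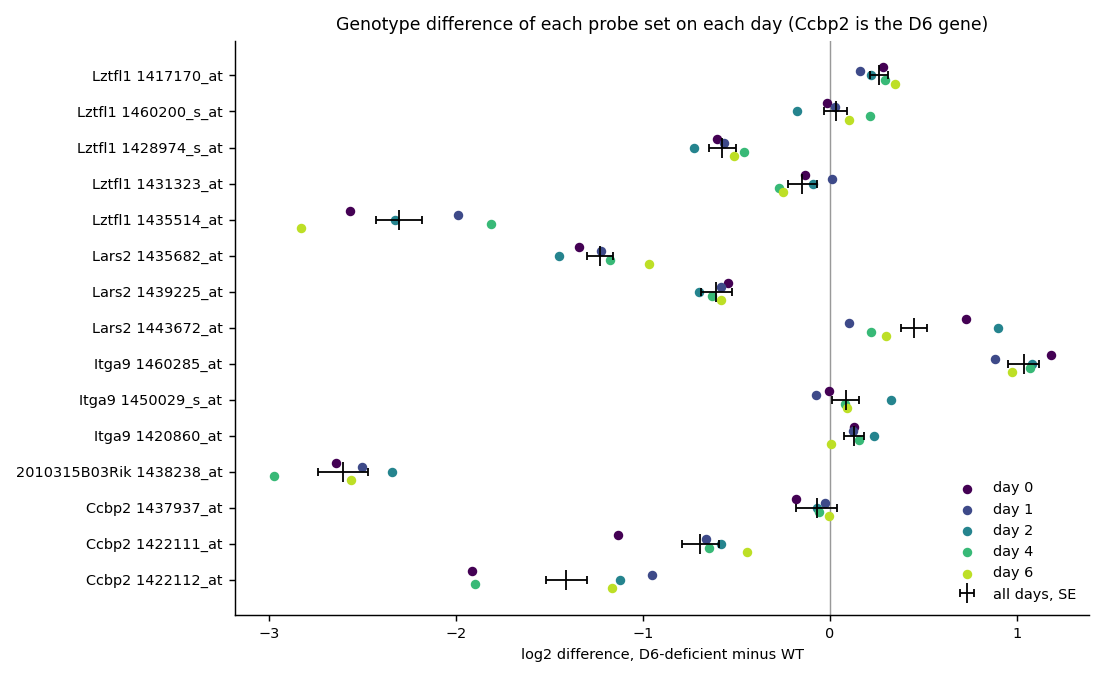
Log2 difference between D6-deficient and WT skin (horizontal axis) for each probe set of the 4 genes and of the D6 gene Ccbp2 (vertical axis), with 1 coloured point per day and the mean over all days with its SE in black. The points of a probe set stay on 1 side of 0 for 1438238_at, 1435514_at, 1435682_at and 1460285_at, while probe sets of 1 gene lie on both sides of 0 for Lztfl1 and Lars2.

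Whether TPA itself moved the 4 genes was a separate question, which the choice of members did not use. The mean of both genotypes at each day was compared with that at day 0 by limma over all probe sets tested, with a call at a Benjamini-Hochberg adjusted p under 0.05. Of the 12 probe sets, 1 rose and 2 fell at day 1, where 21.8% of all tested probe sets rose and 22.8% fell. At day 2, 3 rose and 1 fell (20.8% and 25.0% of all). At day 4, 4 rose and 2 fell (25.3% and 29.0%), and at day 6, 1 rose and 1 fell (20.2% and 21.5%). The median change of the 12 lay between 0.06 and 0.12 on the 4 days, and that of all probe sets between -0.0065 and 0.0119. In all, 3, 4, 6 and 2 of the 12 were called, and whether this differs from the share among all tested probe sets was not tested. With each array centred on its median the split was 3 higher and 1 lower at days 1 and 2, 6 higher and 2 lower at day 4, and 2 higher and 1 lower at day 6. Centring tipped the calls among all 36029 tested probe sets towards rises too, on each of the 4 days. For day 4, rises went from 9116 to 11097 while falls went from 10465 to 9174. For day 1, rises went from 7862 to 8750 while falls went from 8200 to 7454. A tilt towards rises after centring was thus not particular to the 12.

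Itga9 gave the clearest response, a rise at day 4 on all 3 of its probe sets. On 1450029_s_at the day 4 arrays read 6.60, 6.73 and 6.59 in WT and 6.65, 6.63 and 6.89 in D6-deficient skin, whereas the controls read 5.47, 5.58 and 5.39 and 5.42, 5.66 and 5.33. All 6 day 4 arrays lay above the 24 arrays of other days. The change was 1.21 (SE 0.11, adjusted p = 2.8e-09), with 1.16 in WT and 1.25 in D6-deficient mice. On 1420860_at it was 0.60 (SE 0.08, adjusted p = 1.6e-06), and on 1460285_at, the probe set that separates the genotypes, 0.58 (SE 0.13, adjusted p = 4.9e-04). By day 6 none of the 3 differed from day 0 at the threshold, with changes between -0.11 and 0.11. On 1460285_at the day 4 change was 0.64 in WT and 0.53 in D6-deficient mice, from separate control levels. At day 2, 1420860_at had risen by 0.22 (SE 0.08, adjusted p = 0.038), a call lost when any of 8 arrays was left out, at an adjusted p of up to 0.10 without D6-deficient day 0 replicate 3. At day 4, 3 of the 4 keratinocyte markers fell and 1 rose (summed level 13.5 to 14.6, day 0 14.7 to 15.3), with Krt1 at -3.49 and Krt10 at -4.89. Of the 4 lymphatic markers 1 rose and 0 fell (summed level 12.1 to 12.9, day 0 10.4 to 11.6), with Pdpn at 2.11. Lyve1 at 0.32, Flt4 at -0.03 and Prox1 at -0.34 did not pass, so the rise was that of Pdpn only. Of the 4 leukocyte markers 3 rose and 1 fell (summed level 13.8 to 14.3, day 0 13.7 to 14.1), with Cd68 at 1.36 and Cd52 at 1.10, and all 4 skeletal muscle markers fell (14.7 to 15.3, day 0 15.7 to 16.0). Of the fibroblast markers 1 rose and 2 fell, and of 3 adipocyte markers 2 fell. The part of these shifts in the rise of Itga9 was not tested.

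Lars2 moved in opposite directions on its probe sets after TPA too. On 1435682_at it fell on all 4 days, by 0.56 at day 1 (SE 0.11, adjusted p = 1.7e-04), 0.50 at day 2 (adjusted p = 5.2e-04), 0.43 at day 4 (adjusted p = 0.0018) and 0.48 at day 6 (adjusted p = 9.9e-04) by limma. On 1443672_at it rose by 0.41 at day 2 (SE 0.11, adjusted p = 0.0035), 0.55 at day 4 (adjusted p = 1.7e-04) and 0.48 at day 6 (adjusted p = 0.0010). The third probe set, 1439225_at, gave values between 0.06 and 0.26 that did not pass. For Lztfl1, 1435514_at fell by 0.72 at day 4 (SE 0.19, adjusted p = 0.0029), from a mean of 5.76 to 4.67 in WT mice and of 3.20 to 2.86 in D6-deficient mice, whose arrays were already near the bottom of the scale. 1417170_at rose by 0.30 at day 1 (SE 0.08, adjusted p = 0.0023) and by 0.21 at day 2 (adjusted p = 0.025), a call lost when any of 5 arrays was left out (adjusted p up to 0.083 without WT day 2 replicate 3). The other 3 Lztfl1 probe sets passed on no day. 2010315B03Rik fell by 0.56 at day 1 (SE 0.21, adjusted p = 0.037), with changes of -0.63 in WT and -0.49 in D6-deficient mice. This call was lost when any of 8 arrays was left out (adjusted p up to 0.11 without D6-deficient day 0 replicate 1) and after median centring (adjusted p = 0.053). On the other days it did not pass.

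**Figure D3:**
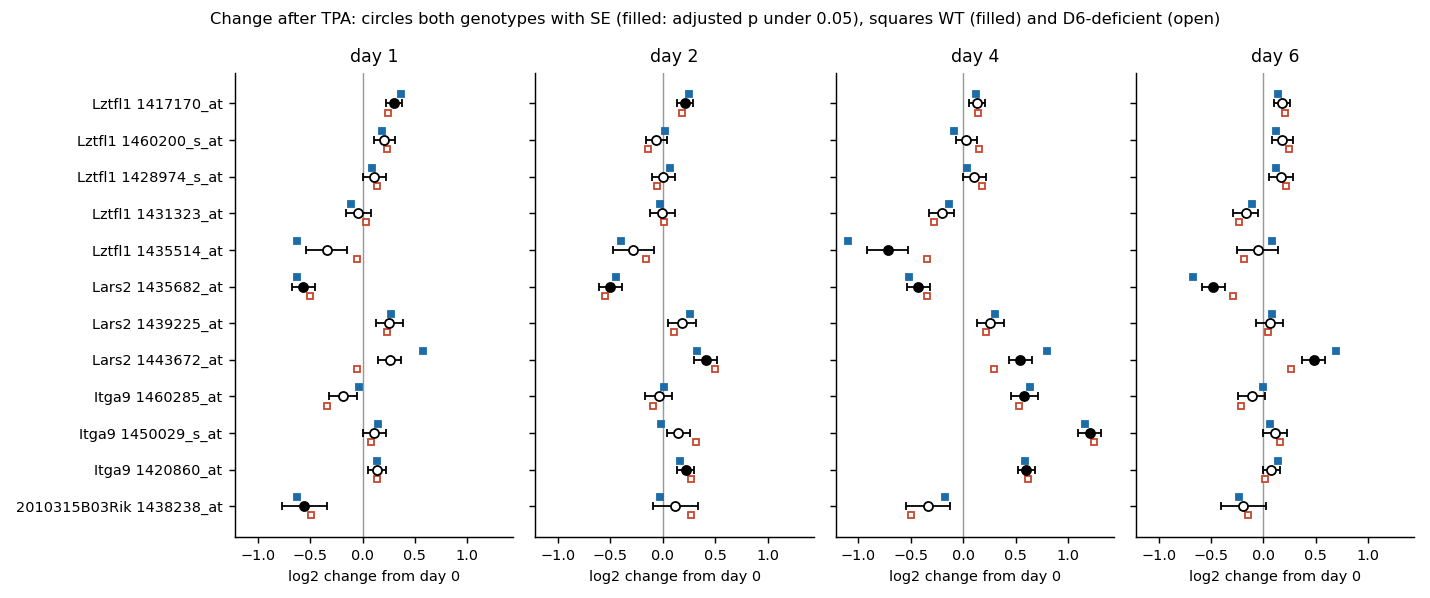
Log2 change from day 0 (horizontal axis) of the 12 probe sets (vertical axis) at days 1, 2, 4 and 6, as the mean of both genotypes with its SE (circles, filled where the adjusted p was under 0.05) and in WT (filled squares) and D6-deficient mice (open squares). The 3 Itga9 probe sets lie at 0.58 to 1.21 at day 4, and Lars2 1435682_at lies left of 0 on every day.

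Other genes near D6 were examined next, leaving out the D6 gene and the 4 members. Of the 100 annotated genes on either side (71 after D6, where the chromosome ends), 77 had a tested probe set, 133 in all. Over all days, limma called 4 of the 133 higher and 15 lower in D6-deficient skin, 14.3%, against 2.29% higher and 3.23% lower among all tested probe sets. After the D6 gene, where Lars2, Lztfl1 and 2010315B03Rik lie, 14 of 56 were called (25.0%), and before it 5 of 77 (6.49%). The rest of chromosome 9 gave 5.08%, and the other chromosomes, apart from Y with 0 of 4 probe sets called, between 3.64% on chromosome 4 and 11.6% on chromosome 8, with 9.63% on chromosome 3. When the window was narrowed to the nearest 50 genes on each side, 6 of 73 were called (8.22%), and the other 13 calls lay beyond it. These counts are descriptions of the region, with no test of it. None of the 133 separated all arrays of the genotypes.

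The 8 neighbour genes with the largest differences among those called were all lower in D6-deficient skin. They included 3 chemokine receptors, Ccr9 at -0.88 (SE 0.08, adjusted p = 4.2e-07), Ccr2 at -0.77 (SE 0.10, adjusted p = 3.3e-05) and Ccr3 at -0.64 (SE 0.14, adjusted p = 0.0056) by limma. None of the 4 leukocyte markers differed by genotype, with summed levels of 13.7 to 14.9 in D6-deficient and 13.9 to 14.3 in WT skin. The part of leukocyte content in these receptors was not tested. The probe sets of Ccr9 and Ccr2 disagreed in size, and not all passed by limma. The other 3 of Ccr9 gave -0.15 to -0.19, and those at -0.15 and -0.19 did not pass (adjusted p = 0.41 and 0.11). Genotype means of these 3 were 3.78 to 4.47, near the lowest mean kept (3.72). The other 3 of Ccr2 gave -0.35 to -0.44, and the probe set at -0.44 did not pass (adjusted p = 0.096). That probe set and Ccr2 1421186_at kept their sign on 4 of the 5 days. Fyco1, an adaptor for the transport of autophagosomes, differed by -0.89 on 1 probe set (SE 0.12, adjusted p = 4.2e-05) and by -0.14 on the other (adjusted p = 0.25). Slc6a20a, a transporter of proline, differed by -0.88 (SE 0.12, adjusted p = 3.6e-05), and the LIM domain gene Limd1 by -0.58 and -0.53 on its 2 probe sets (adjusted p = 8.0e-04 and 2.6e-05). Klhl40, named Kbtbd5 on the array (-0.66, SE 0.12, adjusted p = 0.0012), and Hhatl (-0.61, SE 0.09, adjusted p = 2.0e-04) are expressed in skeletal muscle, whose 4 markers were lower in D6-deficient skin as given above, by -0.27 to -0.94, and the part of muscle content in these neighbours was not tested. The differences of the 8 genes were uneven over the days. In control skin they were -1.98 for Ccr9, -1.32 for Ccr2, -0.85 for Fyco1 and -0.78 for Slc6a20a. They were smaller there for Limd1 (-0.48), Ccr3 (-0.32), Hhatl (-0.21) and Klhl40 (-0.06, against -1.095 at day 4). These values are for the probe set of each gene with the largest difference. The remaining 7 genes with a call were Gorasp1, Csrnp1, 1700048O20Rik and Ccr1, which were higher, and Xirp1, 4930526I15Rik and Ppp2r3d, which were lower.

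**Figure D4:**
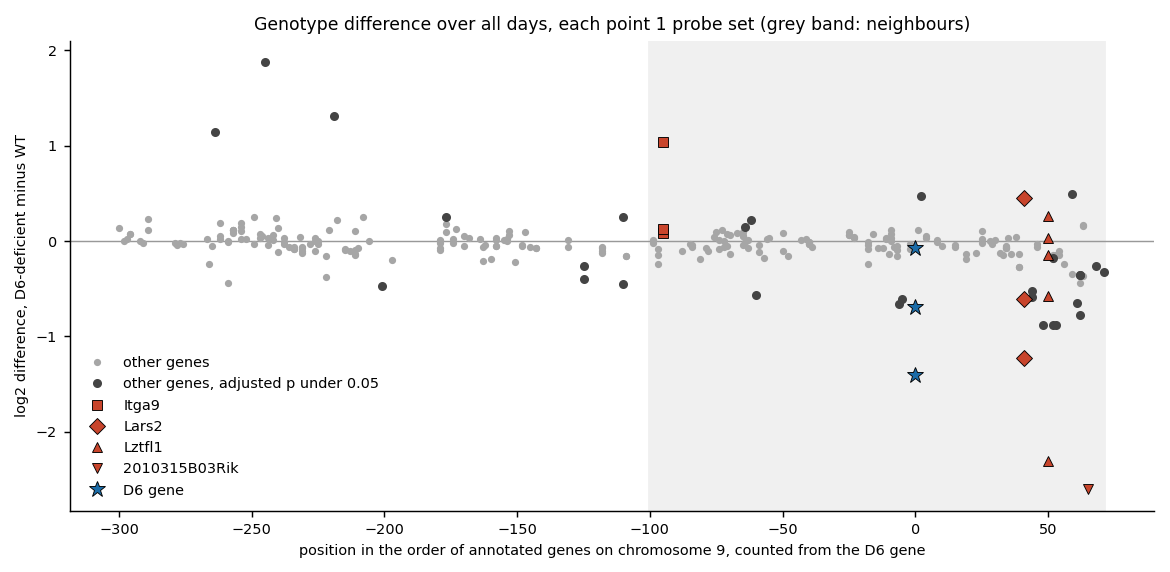
Log2 difference between D6-deficient and WT skin over all days (vertical axis) of single probe sets, by the position of their gene in the order of annotated genes on chromosome 9 (horizontal axis, 0 is the D6 gene). The lowest points after D6 are 2010315B03Rik at -2.60 and Lztfl1 at -2.30; the 3 highest points outside the grey band of neighbours are the neutrophil granule genes Ngp (1.88), Ltf (1.31) and Camp (1.15), named after their values were seen.

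**Figure D5:**
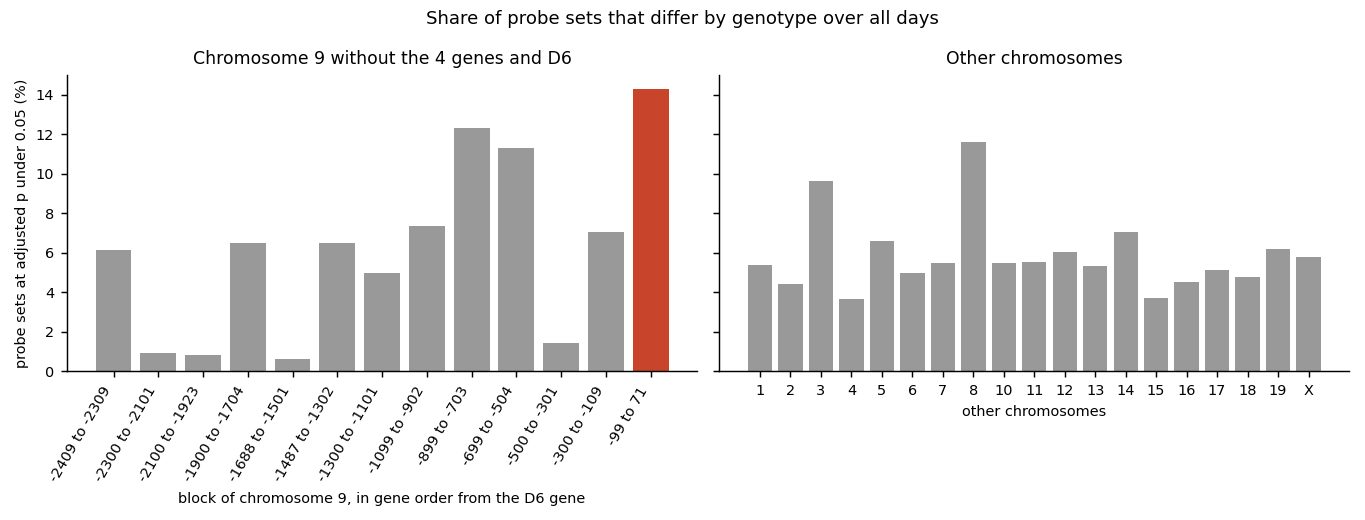
Share of tested probe sets with an adjusted p under 0.05 for genotype over all days (vertical axis, percent) in blocks of 200 annotated genes along chromosome 9, left, and on each other chromosome, right. The block around D6, in red and without the D6 gene and the 4 members, reaches 14.3%, chromosome 8 reaches 11.6%, and the block at positions -899 to -703 reaches 12.3%.

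Genes that work with the members were read from lists of known partners. Of the BBSome and its loading factor Arl6, 9 genes with 14 probe sets, limma called 0 by genotype. At an unadjusted p under 0.05, limma gave 2 of the 14 (18.7% of all probe sets). A comparison pooled over the days, 15 arrays against 15, gave 0 of the 14. It counts the variation between days as spread and is not the study's comparison at each time point. After TPA, 1 of the 14 rose and 5 fell at day 4 (25.3% and 29.0% of all tested probe sets), and 4 rose and 1 fell at day 6 (20.2% and 21.5% of all). Bbip1, a small subunit named Ncrna00081 on the array, fell by 0.77 (SE 0.16, adjusted p = 1.8e-04) and Bbs2, a core subunit, by 0.66 (SE 0.11, adjusted p = 3.1e-05) at day 4, as did Bbs1 by 0.38 (adjusted p = 1.7e-04), and Arl6, the GTPase that recruits the complex to membranes, rose by 0.64 at day 6 (SE 0.11, adjusted p = 3.5e-05). Of 15 other mitochondrial aminoacyl-tRNA synthetases with 26 probe sets, Iars2 (isoleucine) was lower in D6-deficient skin, at -0.21 (SE 0.06, adjusted p = 0.040 by limma). This call was lost when any of 17 single arrays was left out, at an adjusted p of up to 0.076 without D6-deficient day 1 replicate 2. After TPA 3 of the 26 rose and 3 fell at day 4 (25.3% and 29.0% of all tested probe sets), among them Iars2 at -0.51 (adjusted p = 6.7e-05) and Hars2 at -0.47 (adjusted p = 3.6e-05), and 7 rose and 0 fell at day 6 (20.2% and 21.5% of all), with Cars2 at 0.58 (adjusted p = 1.1e-04). Yars2 rose by 0.44 at day 1 (adjusted p = 0.0017).

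The partner chain and ligands of integrin alpha-9 included genes with larger changes after TPA than Itga9. At day 4, when the 3 Itga9 probe sets rose, 19 of 26 probe sets of this list rose and 5 fell, against 25.3% and 29.0% of all tested probe sets. Tnc, which encodes tenascin C, rose by 5.77 at day 4 (SE 0.30, adjusted p = 1.7e-13), from a mean of 6.59 to 12.36, and Spp1, which encodes osteopontin, rose by 2.83 (SE 0.26, adjusted p = 1.9e-09). Adam12, a membrane metalloproteinase, rose by 2.20 at day 1 (SE 0.21, adjusted p = 2.0e-08). Fn1, which encodes fibronectin, fell by 2.24 at day 6 on 1437218_at (SE 0.18, adjusted p = 1.8e-09). By genotype, 6 of the 26 were higher and 1 lower in D6-deficient skin (2.29% and 3.23% of all tested probe sets). Spp1 was higher by 0.93 (SE 0.16, adjusted p = 7.4e-04), 2 probe sets of Vegfc by 0.36 and 0.41 (adjusted p = 0.0030 and 0.0084), and 3 of Vcam1 by 0.18 to 0.45 (adjusted p = 0.0027 to 0.043), whereas Fn1 was lower by -0.44 on 1426642_at (adjusted p = 0.022). The difference of Spp1 was 3.25 at day 2 and between 0.15 and 0.75 on the other days. The differences of Vcam1 and Vegfc were uneven as well. Vcam1 1415989_at was at -0.34 at day 0, 0.92 at day 2 and 0.0046 at day 4, and Vcam1 1448162_at at -0.11 at day 0 and 1.16 at day 2. The Vegfc probe sets were at -0.19 and -0.03 at day 0 and at 0.62 and 0.87 at day 6. Of the Vcam1 calls, that of 1451314_a_at was lost when any of 19 single arrays was left out (adjusted p up to 0.079), as was that of 1415989_at for any of 12 (up to 0.058).

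The probe sets of other genes whose values over the 30 arrays were most like those of the members were taken next. For 2010315B03Rik these were Lztfl1 1435514_at (Pearson r = 0.93), Tm2d2 (0.90) and Lars2 1435682_at (0.89), and for Lars2 1435682_at they were Tm2d2 (0.93), Lztfl1 (0.89) and 2010315B03Rik (0.89). These correlations span both genotypes, so that the genotype step is in each of them. After the mean of each genotype was taken away, none of these genes was among the 3 most alike. For 2010315B03Rik the highest were then Taok3 (0.65), Arntl2 (0.61) and Duoxa1 (0.61), and for Lars2 Gm3556 (0.86), Rtn4 (0.83) and Hs2st1 (0.81). For Itga9 1460285_at they were Clcn5, Pitpnm1 and Tnfrsf1a, each at 0.87, and for Lztfl1 1435514_at, a probe set added to this comparison after its values were seen, Prdx2 (0.79), Cd300lg (0.75) and Trim23 (0.72). For Lztfl1 1417170_at, Eva1a (0.83), Pigx (0.74) and Sfrp1 (0.73) were most alike over all arrays, and Sdf2 (0.74), Orc4 (0.73) and Tbca (0.71) within genotypes. For Itga9 over all arrays they were Cdk9 (0.81), Spcs3 (0.81) and AU019157 (0.79). These values are descriptions across the same 30 arrays, with no test.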

How the data were processed

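RNA of whole back skin was hybridized to Affymetrix mouse 3′ expression arrays. Per the study's methods and the labels, the authors processed the arrays in GeneSpring by robust multiarray analysis (background correction, quantile normalization, summarization of probes), and they deposited linear intensity values. RMA gives no call of presence, so low values have no stated background. The number of arrays limits the precision. A second deposited table holds a sample sheet and was not used.

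The log2 of the intensity was taken. The 64 controls and the 20% of probe sets with the lowest mean were left out (9008), and limma (lmFit, eBayes; limma 3.58.1, R 4.3.3) was fitted to 36029 probe sets on 30 arrays with 1 mean per genotype and day. Contrasts were the change from day 0 averaged over both genotypes, and the genotype difference averaged over the 5 days. Adjusted p values are Benjamini-Hochberg over all tested probe sets. The median SD within groups was 0.187. The replicates are separate mice. The members and lists were chosen with earlier results of these data known, and the genotype difference of the members was not tested. Names: all probe sets of the members and of the D6 gene; the 3 probe sets of other genes most correlated with the probe set of highest mean of each member, with and without the genotype means; up to 8 neighbour genes with the largest called difference; of the partner lists, every probe set called by genotype and up to 4 genes with the largest change after TPA. Lists: the BBSome with Arl6; 16 mitochondrial aminoacyl-tRNA synthetases, of which Mars2 was not tested; 11 genes of the beta-1 chain and ligands of integrin alpha-9. Gene order came from RefSeq (GRCm38.p6), to which 35729 probe sets matched by gene ID or symbol; its sequence is that of C57BL/6J. Probe sets whose name ends in _s_at, _a_at or _x_at can read more than 1 transcript. The sequences of the array probes were not used here, and 1 result among the partner lists is not reported here. The scripts were tested on simulated data. Figures were drawn with Python 3.11.15 and matplotlib 3.10.9.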

Additional observations from a re-analysis of the deposited data

Results flagged for a closer look

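Among 27 probe sets of partner and neighbour genes named in the text, the change after TPA was compared between the genotypes at each day, 108 comparisons in all, and 9 had an adjusted p under 0.05 for the difference in change by limma over all tested probe sets. At day 2 the change was larger in D6-deficient mice for Spp1, at 3.45 against 0.54 in WT mice (difference 2.91, SE 0.51, adjusted p = 0.0012), and for Adam12, at 2.68 against 0.73 (difference 1.96, adjusted p = 0.0065). The 3 probe sets of Vcam1 gave differences of 1.26, 1.27 and 0.65 (adjusted p = 3.2e-05, 0.0079 and 0.033), and 1 probe set of Vegfc gave 0.88 (adjusted p = 0.024). For the neighbour Ccr9, 1427419_x_at gave differences of 1.53 at day 1, 1.83 at day 2 and 1.61 at day 4 (adjusted p = 0.030, 1.8e-04 and 0.0070). Its genotype difference was -1.98 in control skin, -0.16 at day 2 and -1.45 at day 6. Among 48 comparisons of the 12 member probe sets, none had all arrays of one genotype above and of the other below their own controls.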

How the results depend on the processing

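The genotype differences of the 12 member probe sets moved by less than 1 SD within groups under each alternative. There were 48 values from median centring, no filter on low values, the replicate block and the array set as a term. Another 360 came from leaving out each of the 30 arrays. Most of this was fixed by the design. Lifting the filter and the balanced replicate block cannot change these differences. Leaving out a single array changes only 1 group mean and cannot move the difference by 1 SD. Only median centring and the array set as a term could have shown a larger move. Of the 15 changes after TPA called among the members, 2 lost the call in 1 of the other settings (Lztfl1 1417170_at at day 2, adjusted p = 0.052 with the arrays of the 2 days only, and 2010315B03Rik at day 1, 0.053 with median centring) and 3 without single arrays. The counts of 3, 4, 6 and 2 member probe sets at days 1, 2, 4 and 6, of 9 partner and of 19 neighbour probe sets were 3, 4, 6, 2, 10 and 18 with the replicate block, and the block changed none of the members' calls. No pairing of the mice by number was seen. Deviations of same-numbered arrays from their group means had a mean correlation of 2.04e-05 (-0.352 to 0.481), against -8.63e-05 for other numbers. For 12 of 30 arrays the mean correlation with arrays of other groups was highest for their own number among the 3. All 6 counts fell to 0 when a change of more than 3-fold was asked for in addition. The same held for an unpaired t-test at that threshold, before and after Benjamini-Hochberg adjustment. This t-test pooled the days for genotype, 15 arrays against 15, and pooled the genotypes for the change after TPA. It is thus not the study's comparison of the genotypes at each time point, which was not run here. At an unadjusted p under 0.05 without that threshold, limma gave 5, 4, 6, 3, 18 and 34, and the t-test 2, 1, 3, 1, 9 and 16. These are out of 12 member, 66 partner and 133 neighbour probe sets. Among all tested probe sets limma gave 50.81%, 52.1%, 59.09% and 48.64% for the change after TPA at days 1, 2, 4 and 6, and 18.73% for genotype. In the t-test the genotype difference of the members counts as spread, and for the genotype counts so does the variation between days. With the 50 nearest genes on each side the neighbours called were 6. The day 2 count was between 2 and 4 with single arrays left out, 2 without D6-deficient day 0 replicate 3, D6-deficient day 2 replicate 2, WT day 0 replicate 3 or WT day 2 replicate 3. The partner count was between 5 and 11, 5 without D6-deficient day 0 replicate 3, WT day 0 replicate 1 or WT day 6 replicate 3. The neighbour count was between 14 without WT day 6 replicate 1 and 23 without D6-deficient day 6 replicate 3. Median centring moved all changes after TPA by 0.030 to 0.057. Low signal limits Lztfl1 1435514_at, whose D6-deficient arrays carry no call of presence.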
